A study of Mus musculus with 30 samples.

Results

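Methylation was examined at 10 genes of the synaptonemal complex and the meiotic chromosome axis: Sycp1, Sycp2, Sycp3, Syce1, Syce2, Syce3, Tex12, Hormad1, Rec8 and Smc1b. They were taken by name from the 34337 protein-coding, lncRNA and antisense genes of the RefSeq annotation of GRCm38.p6, the mouse genome build. Reduced representation bisulfite sequencing, which reads CpG-rich fragments of bisulfite-converted DNA, had been applied to mature sperm from the cauda epididymis of male C57BL/6J mice. In the cadmium group, 15 mice had cadmium chloride in their reverse-osmosis drinking water at 0.9 ppm of cadmium, which gave an average dose of 0.68 mg/kg body weight. The 15 vehicle mice were given plain reverse-osmosis water. All 30 mice came from the Jackson Laboratory at 7 weeks of age, were acclimated, housed singly on a diet with 10% of its kcal from fat and treated for 9 weeks, with 1 library for each mouse.

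The synaptonemal complex is the protein ladder that holds homologous chromosomes together in meiotic prophase. Its rails, the lateral elements, form on axes of cohesin and HORMA-domain proteins, transverse filaments cross between them, and a central element ties the filaments together. These proteins act in spermatocytes, long before the mature sperm measured here, and in mouse embryos the promoters of several of their genes are known to gain DNA methylation in somatic lineages.

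A CpG counted as measured where both strands together had 10 or more reads in all 30 libraries. A gene end was the 2 kb on either side of an end of a gene body, and its level in a library was the percentage of methylated reads among all reads over its measured CpGs. Of the 20 ends of the 10 genes, 7 had measured CpGs: the starts of Sycp1, Sycp2, Sycp3, Syce2, Hormad1 and Smc1b, and the stop of Syce1, with 62 measured CpGs in all. Syce3 and Tex12, which code for central element proteins, and Rec8, which codes for a meiotic cohesin subunit, had none, although 15 CpGs at the Syce3 start, 7 at the Tex12 start and 8 at the Rec8 start had a read in some library. Each measured end had 234 to 2041 reads per library, and the 95% Wilson interval of a level in a single library was at most 12.6 points wide. Such intervals cover counting error only, since neighbouring CpGs are read together and copies made by PCR are counted.

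The bases just upstream of 3 starts are shown because 2 of these starts, Sycp1 and Hormad1, varied widely between sperm libraries and the other, Syce2, was nearly unmethylated in all of them. Each sequence is the 250 bases before the annotated start, on the gene's strand, from RefSeq on GRCm38.p6. Capitals mark the measured CpGs in Sycp1 (8 of 17) and Hormad1 (8 of 19), and in Syce2 the 3 of 11 CpGs that reached 10 reads in no fewer than 10 libraries of each group. The measured CpGs that give the Syce2 level lie 253 to 751 bases after the start, outside its sequence.
Sycp1, chr3:102936101-102936350, minus strand: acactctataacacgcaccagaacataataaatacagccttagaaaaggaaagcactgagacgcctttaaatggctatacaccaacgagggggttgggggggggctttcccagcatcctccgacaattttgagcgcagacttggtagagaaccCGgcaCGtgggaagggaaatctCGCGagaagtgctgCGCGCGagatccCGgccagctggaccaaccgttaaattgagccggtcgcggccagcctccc
Hormad1, chr3:95559427-95559676, plus strand: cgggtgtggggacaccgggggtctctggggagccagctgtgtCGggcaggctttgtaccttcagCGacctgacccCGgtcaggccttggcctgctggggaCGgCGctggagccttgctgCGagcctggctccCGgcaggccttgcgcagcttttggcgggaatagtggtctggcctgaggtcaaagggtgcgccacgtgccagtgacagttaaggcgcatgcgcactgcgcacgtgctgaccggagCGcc
Syce2, chr8:84871861-84872110, plus strand: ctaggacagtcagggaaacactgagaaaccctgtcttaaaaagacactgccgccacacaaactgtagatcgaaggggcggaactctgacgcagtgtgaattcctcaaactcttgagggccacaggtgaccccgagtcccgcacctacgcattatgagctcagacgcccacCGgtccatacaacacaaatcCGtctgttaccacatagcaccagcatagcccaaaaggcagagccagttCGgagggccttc

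The RefSeq promoter windows of the 10 genes, 300 bases from 250 before to 50 after the start, held 5 to 29 CpGs, against a median of 7 over 32817 windows of the same length. The letters CACGTG, an E-box that reads the same on both strands, were found in the windows of Sycp1, Sycp3, Tex12 and Hormad1, and in 7.15% of all windows. The letters GCGGGA, or TCCCGC on the other strand, were found in 7 of the 10 windows and in 19.97% of all windows. All 4 windows with CACGTG also held GCGGGA, as did 1.99% of all windows and 4.35% of the 14258 windows with 10 or more CpGs. In mouse embryonic stem cells, repressor complexes with E2F6 and MGA are known to act at germ-cell genes through such letters. In the Sycp1 sequence above the E-box is the run gcaCGtgg around a measured CpG, 94 bases before the start. The Hormad1 E-boxes, 57 and 20 bases before the start, hold no measured CpG.

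Coverage summed over the deposited cytosines was 53591172 to 94090975 per library and did not pass a two-sided permutation test between cadmium and vehicle (p = 0.0603). The chrM share, the part of this coverage that lay on mitochondrial DNA, was 0.0127% to 0.119%. It was 0.0127% to 0.0923% in cadmium libraries (median 0.0673%) and 0.0128% to 0.119% in vehicle libraries (median 0.0449%), and the permutation test of the means gave p = 0.988. The shares of the groups overlapped, but vehicle 12, 13 and 14 lay above every cadmium library. In cadmium library 4 a single cytosine held 10.2% of the coverage, against at most 2.92% in any vehicle library.

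No member was called different between cadmium and vehicle sperm. Mean levels over the 30 libraries ran from 1.502% at the Syce2 start to 97.0% at the Syce1 stop, and the starts of Sycp1, Sycp2, Sycp3 and Hormad1 spread widely in both groups. In the logistic model, none of the 7 measured ends was called for treatment at an adjusted p under 0.05 (Benjamini-Hochberg over all 19434 gene ends with 3 or more CpGs), and 0% of all gene ends were called. Over all gene ends, 1092 had an unadjusted p under 0.05, the smallest adjusted p was 0.154, and limma also called 0. The mean over the 6 measured starts was 24.0% ± 9.596 in cadmium libraries and 23.3% ± 12.3 in vehicle libraries (SD, n = 15 each), a difference of 0.725 points with a 95% interval of -7.51 to 8.96. Without vehicle 12 and vehicle 13, the 2 libraries farthest from the median chrM share, this difference was 3.67 points, and with the share as a covariate it was -0.274.

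**Figure D1:**
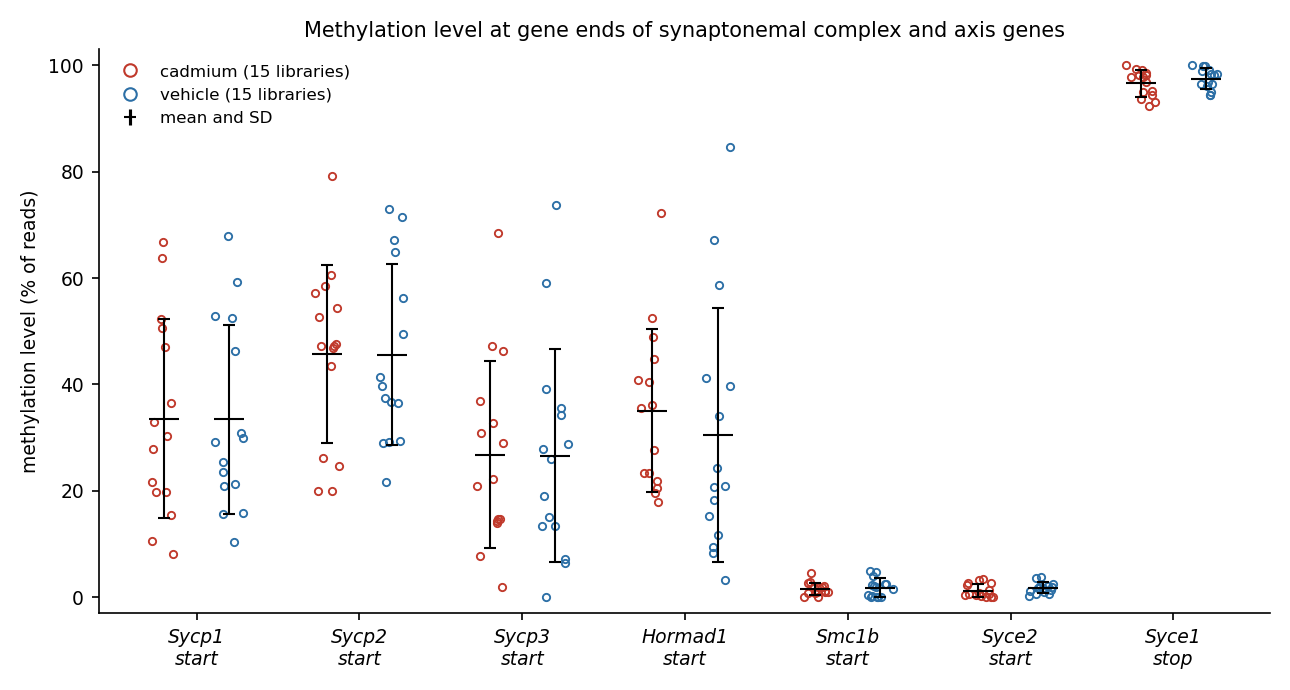
Methylation level (percent of reads) at the 7 measured gene ends, with 1 open circle for each library, cadmium to the left and vehicle to the right, and black bars for the mean and SD. The groups overlap at every end, and the starts of Sycp1, Sycp2, Sycp3 and Hormad1 each span more than 59 points over the 30 libraries, while Smc1b and Syce2 stay below 5%.

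Sycp1 codes for the transverse filament protein. Its gene body lies on chromosome 3, 102818499 to 102936100 on the minus strand, and its 9 measured CpGs all lie upstream of the start, 48 to 599 bases away. Its level was 8.21% to 66.8% in cadmium libraries (median 30.4%) and 10.3% to 67.8% in vehicle libraries (median 29.1%). The ranges were almost the same, with the lowest value in cadmium library 3 and the highest in vehicle library 12. Cadmium libraries averaged 33.6% ± 18.7 and vehicle libraries 33.4% ± 17.8 (SD, n = 15 each), and the difference of 0.134 points had a 95% interval of -13.5 to 13.8.

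Sycp2 and Sycp3 code for proteins of the axial and lateral elements. The 4 measured CpGs of Sycp2, on chromosome 2 (178345295 to 178407776, minus strand), lie 575 to 592 bases upstream. Sycp2 had levels of 19.9% to 79.3% in cadmium libraries (median 47.3%) and 21.6% to 72.9% in vehicle libraries (median 39.6%). The groups overlapped over most of this range, and the means, 45.7% in cadmium and 45.5% in vehicle libraries, differed by 0.181 points (95% interval -12.5 to 12.8).

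Sycp3, on chromosome 10 (88459587 to 88473236, plus strand), had 9 measured CpGs, all inside the gene body, 113 to 239 bases after the start. Sycp3 levels were 1.94% to 68.5% in cadmium libraries (median 22.3%) and 0% to 73.7% in vehicle libraries (median 26.0%). The 0% was vehicle library 3, where 0 of 763 reads were methylated, which allows up to 0.393% if reads at neighbouring CpGs were separate. Neighbouring CpGs are read together, so the true limit is higher. Cadmium library 13 and vehicle library 13 were the highest of their groups, and the means, 26.8% in cadmium and 26.6% in vehicle libraries, differed by 0.203 points (95% interval -13.9 to 14.3).

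Hormad1 codes for a HORMA-domain protein that coats unsynapsed axes and is removed as synapsis proceeds. Its gene lies on chromosome 3 (95559677 to 95587863, plus strand), and its 14 measured CpGs run from 450 bases before to 28 bases after the start. The level was 17.8% to 72.2% in cadmium libraries (median 35.6%) and 3.26% to 84.6% in vehicle libraries (median 20.8%). Vehicle libraries reached both lower and higher than cadmium libraries. The means were 35.1% ± 15.3 in cadmium libraries and 30.5% ± 23.8 in vehicle libraries (SD, n = 15 each), and the difference of 4.56 points had a 95% interval of -10.4 to 19.5. It was 9.00 points without vehicle 12 and vehicle 13 and 1.27 points with CpGs of 20 or more reads, and was not called in either.

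Smc1b, on chromosome 15 (85064689 to 85131957, minus strand), codes for a meiosis-specific cohesin subunit that helps to set the length of the axis. Its 11 measured CpGs lie 137 to 274 bases upstream, and all 11 also lie inside the body of the neighbouring gene Ribc2, so the level belongs to both. It was 0% to 4.49% in cadmium libraries (median 1.21%) and 0% to 4.92% in vehicle libraries (median 1.94%). No methylated read was seen in 1 cadmium and 4 vehicle libraries. If reads at neighbouring CpGs were separate, this allows up to 0.330% in the library with the fewest reads among these. The true limit is higher, since such CpGs share reads. The difference of the means was -0.214 points, with a 95% interval of -1.32 to 0.889.

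Syce2 and Syce1 code for central element proteins. Syce2, on chromosome 8 (84872111 to 84887446, plus strand), had 12 measured CpGs inside the gene body, 253 to 751 bases after the start, with levels of 0% to 3.38% in cadmium libraries (median 0.622%) and 0.234% to 3.76% in vehicle libraries (median 1.80%). The means, 1.25% in cadmium and 1.76% in vehicle libraries, differed by -0.509 points (95% interval -1.36 to 0.341), and the adjusted p of the logistic model was 0.956. Syce1, on chromosome 7 (140777229 to 140787854, minus strand), was measured only at 3 CpGs inside the gene body, 775 to 791 bases before its stop. They were methylated at 92.4% to 100% of reads in cadmium libraries (median 97.8%) and 94.4% to 100% in vehicle libraries (median 98.2%). This was the only measured end that was highly methylated in all 30 libraries, and its difference of -0.884 points had a 95% interval of -2.56 to 0.790.

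Ordered by their means over the 30 libraries, Syce2 (1.502%) and Smc1b (1.70%) were lowest and did not differ beyond their spread, since Smc1b was the higher in 17 of 30 libraries. Sycp3 followed at 26.7% and was above Smc1b in 29 libraries. Hormad1 at 32.8% and Sycp1 at 33.5% did not differ beyond their spread, with Sycp1 the higher in 16 libraries. Sycp2 at 45.6% was above Sycp1 in 26 libraries, and the Syce1 stop at 97.0% was above Sycp2 in all 30.

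The level was next set against the chrM share of each library. The starts of Sycp1, Sycp2, Sycp3 and Hormad1 were more methylated in libraries with a higher chrM share, by 13.7 to 17.4 percentage points for each doubling of the share. These 4 of 7 ends were called higher with the share, in a background of 11.5% of all gene ends called higher and 6.79% called lower. Among gene starts alone, 9.04% of 11729 were called higher and 4.28% lower. The median level was 0.956% over all gene ends and 0.750% over gene starts, far below the levels of these 4 starts. By correlation, the same 4 ends had an adjusted permutation p under 0.05, as did 9.79% of all gene ends with a positive r and 10.9% with a positive rho. Smc1b, Syce2 and the Syce1 stop were not called.

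**Figure D2:**
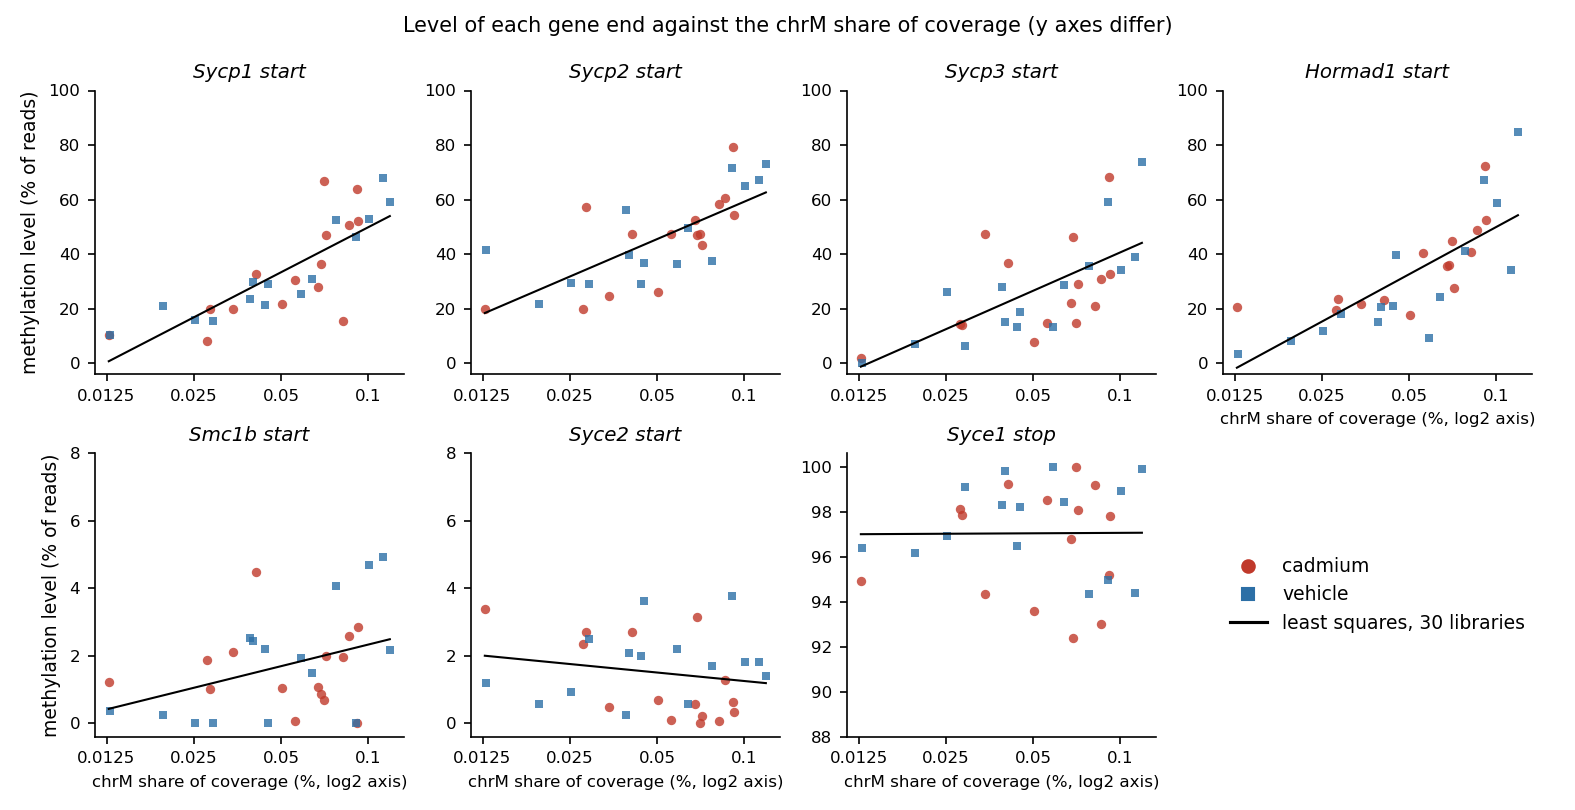
Methylation level (percent of reads) of each measured gene end against the chrM share of coverage (percent, on a log2 axis), with red circles for cadmium libraries, blue squares for vehicle libraries and a least-squares line over all 30. Over all 30 libraries the lines of Sycp1, Sycp2, Sycp3 and Hormad1 climb by 13.7 to 17.4 points per doubling, with Sycp2 (adjusted p = 0.0685) and Sycp3 (0.396) not called within cadmium libraries alone, while Smc1b and Syce2 stay below 5% and the Syce1 stop above 92%.

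Among the 5 libraries with the highest chrM shares, vehicle 12, 13 and 14 and cadmium 11 and 13, the Sycp1 level was 52.2% to 67.8%. It was 8.21% to 20.9% in the 5 with the lowest shares, cadmium 3 and 5 and vehicle 1, 3 and 9. For Hormad1 the same libraries gave 34.1% to 84.6% at the highest shares and 3.26% to 20.5% at the lowest. These sets of libraries were picked by their share. Within their groups the highest were numbered 11 to 14 and the lowest 1 to 9, so the share tended to be higher at higher library numbers. Vehicle 4, at 0.0906%, had the next highest share. How many of all gene ends have levels that do not overlap between these sets of 5 libraries was not counted. Sycp3 was at 32.8% to 73.7% at the highest shares and 0% to 26.0% at the lowest, and Sycp2 was at 54.4% to 79.3% at the highest and 19.9% to 41.5% at the lowest. Smc1b overlapped fully, at 0% to 4.92% with the highest shares and 0% to 1.87% with the lowest.

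The slope of Sycp1 was 16.5 ± 2.32 points per doubling (SE, n = 30 libraries), with an adjusted p of 6.30e-07 in the logistic model, and ranked above 99.1% of all gene ends tested. A slope in points cannot be large where levels stay near 0%, and the median gene end was at 0.956%. By the p of the logistic model Sycp1 ranked 85 of 19434. Pearson's r was 0.80 and Spearman's rho 0.84, each with a permutation p of 1e-05, the smallest that 100000 resamples can give, and adjusted values of 0.000347 and 0.000230 over all gene ends. The correlation was 0.71 within cadmium libraries and 0.90 within vehicle libraries. Without vehicle 13 and vehicle 12, the 2 libraries farthest from the median share, r was 0.77.

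The Hormad1 slope was 17.4 ± 2.77 points per doubling (SE, n = 30), with an adjusted p of 5.98e-06, and above 99.4% of gene ends. By the p of the logistic model Hormad1 ranked 322 of 19434. Here r was 0.76 and rho 0.84, with adjusted permutation p of 0.000347 and 0.000230. The correlation r was 0.73 within cadmium libraries and 0.79 within vehicle libraries, and without the 2 farthest libraries it was 0.77. Of the 15 libraries with a share above the median, 13 had a Hormad1 level above its median. The same count was 12 for Sycp1, 11 for Sycp2, 11 for Sycp3, 9 for Smc1b and 7 for Syce2. It is not given over all gene ends.

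Sycp2 had a slope of 13.7 ± 2.49 points per doubling (adjusted p = 0.000341), with r of 0.72 and rho of 0.75 (adjusted permutation p of 0.000519 and 0.000380). Here r was 0.71 within cadmium libraries, 0.73 within vehicle libraries and 0.67 without the 2 farthest libraries. The logistic model within the 15 cadmium libraries alone gave an adjusted p of 0.0685 for Sycp2, with a slope of 14.7.

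Sycp3 had a slope of 14.1 ± 3.01 points per doubling (adjusted p = 0.000151), with r of 0.66 and rho of 0.70 (adjusted permutation p of 0.00163 and 0.000763). Its correlation was 0.48 within cadmium libraries and 0.80 within vehicle libraries, and 0.62 without the 2 farthest libraries. Within cadmium libraries alone the slope was 10.48 and the adjusted p 0.396. The cadmium and vehicle slopes of Sycp3 were not shown to differ, with an adjusted p of 1 for the product of treatment and share.

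Smc1b, nearly unmethylated throughout, had a slope of 0.640 ± 0.291 points per doubling, with an adjusted p of 0.0822, r of 0.38 and rho of 0.36 (adjusted permutation p of 0.155 and 0.196). Its r was -0.030 within cadmium libraries and 0.63 within vehicle libraries. In vehicle libraries alone its slope was 1.15 with an adjusted p of 0.0411. The adjusted p over the remaining libraries was 0.0352 without cadmium 8, 0.0432 without cadmium 13 and 0.0412 without vehicle 4. For Smc1b the product of treatment and share had an unadjusted p of 0.0485 and an adjusted p of 0.904.

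Syce2 had a slope of -0.252 ± 0.244 points per doubling (adjusted p = 0.834), with r of -0.19. Its correlation was -0.66 within cadmium libraries and 0.30 within vehicle libraries, and the difference of the slopes had an unadjusted p of 0.0115 and an adjusted p of 0.760. Over all gene ends, 0.0463% were called for a slope difference, and none of the 7 member ends was among them. The Syce1 stop, at nearly full methylation, had a slope of 0.020 ± 0.487 and r of 0.0077.

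Single CpGs showed how evenly each start behaved. Of the 62 measured CpGs, 33 were called higher with the chrM share and 0 lower, against 6.93% of 416876 CpGs called higher and 6.64% called lower. CpGs of 1 gene end share reads, so these are not separate observations. All 9 Sycp1 and all 4 Sycp2 CpGs were called, with 12 of 14 at Hormad1, 7 of 9 at Sycp3, 1 of 11 at Smc1b and 0 at Syce2 and Syce1. The Smc1b call, 219 bases upstream, rests on vehicle library 12 alone, with 10 of 59 reads methylated there and none in the other 29 libraries. None of the 62 was called between cadmium and vehicle, where 0.00168% of all CpGs were. Of the 62, 2 had an unadjusted p under 0.05 for treatment, as did 42788 of all 416876 CpGs.

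**Figure D3:**
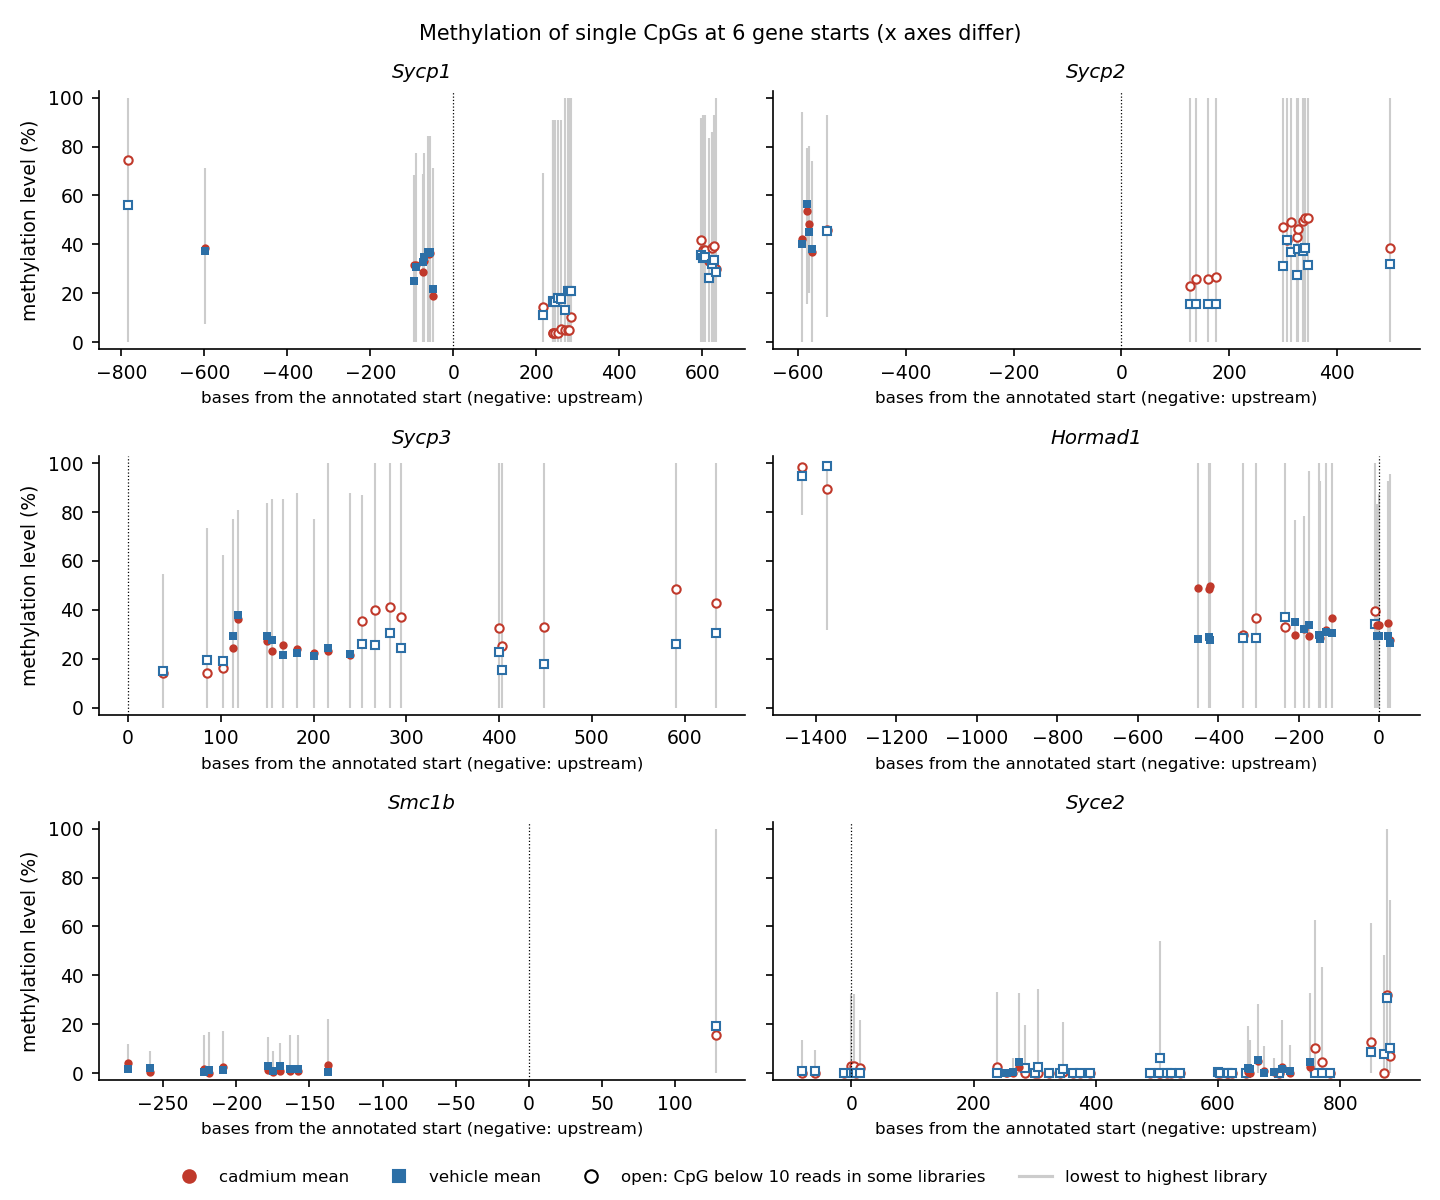
Mean methylation level (percent) of single CpGs in cadmium libraries (red circles) and vehicle libraries (blue squares) against the distance in bases from the annotated start, with grey lines from the lowest to the highest library and open symbols for CpGs below 10 reads in some libraries. The measured Hormad1 CpGs, from 450 bases before to 28 after the start, average 27.0% to 38.7% over all libraries and the 2 CpGs at 1434 and 1373 bases upstream above 94%, while the measured (filled) CpGs of Smc1b and Syce2 average 5.19% or less. Among open symbols, the Syce2 CpG 876 bases after the start averages 31.2% over 22 libraries and the Smc1b CpG 128 bases after it 17.2% over 24.

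At Hormad1 the CpGs averaged 27.0% to 38.7% over all libraries. The 3 most distant, 450, 424 and 421 bases upstream, were at 48.7% to 49.6% in cadmium libraries, against 27.6% to 28.7% in vehicle libraries. Single libraries ranged from 0% to 100% at each of the 3, and the adjusted p for treatment was 0.5002 to 0.521. The other 11 Hormad1 CpGs differed between the group means by at most 6.23 points. At Sycp1 the CpG means ran from 20.4% at the CpG nearest the start, 48 bases upstream, to 37.9% at the farthest, 599 bases upstream. They did not rise steadily with distance, since the CpG 56 bases upstream averaged 36.7% and the one 96 bases upstream 28.3%.

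With a wider set of CpGs, chosen after seeing the data, in which a CpG needed 10 reads in only 10 libraries of each group, the member ends held 157 CpGs. Of these, 43 were called higher with the share, 2 lower and 0 for treatment, while 4.69% of 1126751 CpGs were called higher, 5.73% lower and 0.000533% for treatment. The 2 CpGs of Hormad1 that lie 1434 and 1373 bases upstream formed a stretch at 95.4% ± 7.41 in 14 cadmium libraries and 96.1% ± 6.49 in 15 vehicle libraries. This was far above the 35.01% in cadmium and 31.3% in vehicle libraries between 450 and 118 bases upstream of the same gene.

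Inside the Sycp1 gene, 7 CpGs 597 to 633 bases after the start stood at 35.2% ± 21.3 in cadmium libraries and 32.4% ± 28.4 in vehicle libraries (SD, n = 15 each), and all 7 were called higher with the share. Between them and the start, 10 CpGs 217 to 284 bases after it were lower, at 6.13% ± 9.42 in 14 cadmium libraries and 16.9% ± 23.1 in 15 vehicle libraries, and none of these was called with the share or for treatment. The slope of this stretch was 10.1 points per doubling. In the logistic model its CpGs 239 to 259 bases after the start had adjusted p of 0.0541 to 0.0663 with the share, and the rest higher. At Sycp2, 5 of 18 CpGs were called higher, all of them 547 to 592 bases upstream. None of its CpGs 127 to 499 bases after the start was called, where the stretches had fewer reads and slopes of 13.6 to 22.7. At Sycp3, 7 of 21 CpGs were called higher. Around the Syce2 start, 7 CpGs from 80 bases before to 14 after it stood at 1.10% in cadmium and 0.269% in vehicle libraries, and both CpGs called lower lie there. Their methylated reads, 11 of 34 at each, all came from cadmium library 5, so without this library neither CpG had a methylated read and both calls end. The wider set also reached Rec8, where 2 CpGs 1408 to 1423 bases beyond the stop were at 93.6% in cadmium and 91.5% in vehicle libraries, and Syce3, where 1 CpG 354 bases before the stop was at 81.7% in cadmium and 83.4% in vehicle libraries.

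Other meiosis genes were read at their starts for comparison. Of 40 listed gene names, for recombination, axis, telomere attachment and germ-cell bridges, 38 were in the annotation and 21 starts were tested. In this list 4 were called higher with the chrM share, 1 was called lower and 16 were not called, and the median slope was 0.27 points per doubling. The 6 measured member starts had a median of 13.9, and all 11729 gene starts one of 0.023. Their median levels were 29.7% and 0.750%, and no comparison with starts of a like level is given. Of the 21 starts, 11 averaged under 5% methylation, like Smc1b and Syce2, and none was called for treatment.

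The 4 of these starts with the smallest p were Tex14, Prdm9, Stag3 and Kash5. Tex14, needed for the bridges between spermatogenic cells, was at 43.8% ± 18.4 in cadmium and 37.4% ± 20.1 in vehicle libraries, with a slope of 18.99 ± 2.12 (adjusted p = 9.33e-08). Stag3, a meiotic cohesin subunit like Rec8 and Smc1b, was at 51.0% ± 15.8 in cadmium and 49.1% ± 20.1 in vehicle libraries and ran the other way, with a slope of -15.8 ± 2.45 (adjusted p = 1.07e-05). Prdm9, the histone methyltransferase that sets recombination sites, and Kash5, which links telomeres to dynein, had slopes of 3.76 ± 0.656 and 8.29 ± 1.51. These 4 starts also had adjusted permutation p under 0.05 for r and rho. The remaining call of this list, Rnf212 (adjusted p = 0.0200 in the logistic model), did not, at 0.109 for r and 0.149 for rho. The 2 starts with the largest p, Mei4 and Trip13, were both below 1% in each group. Among the somatic cohesin genes, 5 of 9 starts were tested, all 5 averaged 0.303% to 0.611%, and none was called with the share.

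**Figure D4:**
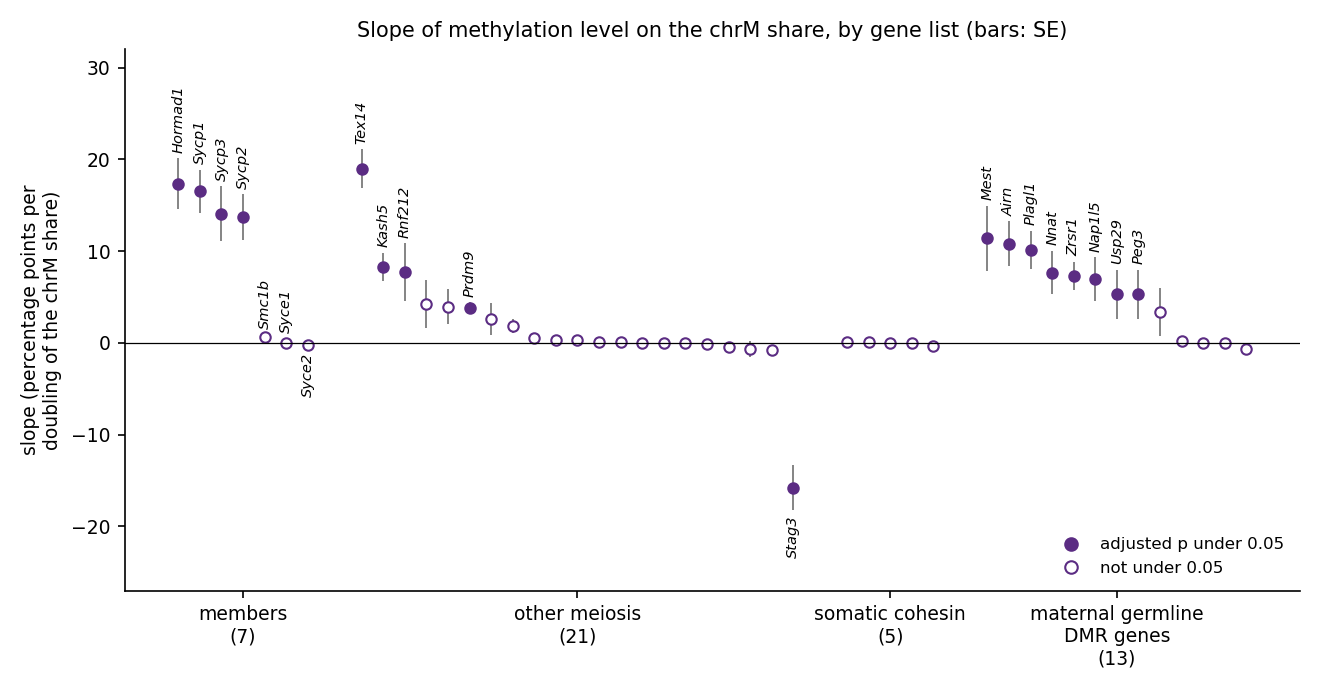
Slope of the methylation level on the chrM share (percentage points per doubling, with SE bars) for the 7 member ends and the tested starts of 3 gene lists, with filled points for an adjusted p under 0.05. Hormad1, Sycp1, Sycp3 and Sycp2 lie at 13.7 to 17.4, the somatic cohesin genes lie near 0, and Stag3 is the only filled point below 0.

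Lists of genes that mark other cells were read beside the members. Of 21 genes with maternal germline imprints, which are unmethylated in sperm and carry 1 methylated allele in body cells, 13 starts were tested, 8 were called higher and 0 lower, where 9.04% of all gene starts were called higher. Usp29 and Peg3 share the same 4 CpGs, so 2 of the 8 are the same measurement. By permutation their adjusted p was 0.212 for r and 0.278 for rho, and that of Nap1l5 was 0.0450 for r and 0.0689 for rho. All gene starts had a median level of 0.750%, and no comparison with starts of a like level is given. The mean over all 13 tested starts of this list was 6.65% to 22.0% in cadmium libraries and 5.05% to 29.4% in vehicle libraries, and Grb10, Blcap and Herc3 averaged under 5%. Whether each tested start lies in the imprinted region of its gene was not checked. Among epididymal epithelium genes, 3 of 16 starts were tested, and Krt18, a keratin of simple epithelia, was called lower, with a slope of -13.8 ± 2.48. The mean over the 3 was 10.54% to 24.2% in cadmium libraries and 7.92% to 37.7% in vehicle libraries. The 1 tested leukocyte start, Coro1a, was not called, at 0% to 1.99% in cadmium and 0% to 8.63% in vehicle libraries. Of 3 paternal imprint genes, which are methylated in sperm at their control regions, 2 starts were tested and neither was called. Their mean was 4.96% to 23.9% in cadmium and 0.329% to 32.6% in vehicle libraries. Tnp1, a transition protein gene of spermatids and the 1 tested start of 6 sperm genes, stood at 31.0% ± 13.3 in cadmium and 30.01% ± 18.3 in vehicle libraries and was called higher, with a slope of 14.2 ± 2.10. The part of other cells in the member levels was not tested.

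Outside the members, the gene ends most like the mean standardized level of the 6 member starts were those of Gml2 and Gml, which share the same 5 CpGs on chromosome 15, with r of 0.91 over 30 libraries. The stops of Prr30 and Pdzrn4 and an end of Pcdhga11 followed at r of 0.90. Of the members themselves, Hormad1, Sycp3, Sycp1 and Sycp2 had r of 0.81 to 0.85 with this mean, which includes them, Smc1b had 0.48 and Syce2 had 0.19. These correlations describe likeness over libraries that share depth and chrM share, and carry no test.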

How the data were processed

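The authors' deposited tables list CpG cytosines by strand, with a count of covering reads and the methylated fraction of that count. Tools named in the submitters' processing notes were methylKit 1.12.0, Bismark 0.22.3, Trim Galore 0.5.0 and bcl2fastq. Fraction times count gave the methylated reads, whole within 0.1 apart from at most 1 cytosine in a library. Strands were summed. Control sequences in the libraries read 97.9% to 98.7% methylated (methylated control) and 0.0740% to 0.666% (unmethylated control).

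Reads summed over gene ends with 3 or more CpGs, and reads of single CpGs, were tested with a quasi-binomial logistic model (Pearson dispersion never below 1, F test) on treatment, on the log2 chrM share, or on both with their product, with Python 3.11.15, numpy 2.4.6 and scipy 1.17.1. Benjamini-Hochberg adjustment ran over all gene ends or over all CpGs. Gene ends covered 15566 distinct sets of CpGs, and strand was known for 26794 genes. Slopes are least squares on levels, and correlations have 100000 permutations. On simulated beta-binomial reads the model gave somewhat too many small p values, most of all where levels were near 0, so the permutation tests stand beside it. Alternatives included limma 3.58.1 in R 4.3.3, other coverage minimums and windows, each group alone and each library left out. Named genes were all members, the 4 smallest and 2 largest p of the meiosis list, with Rnf212 added later, and the 5 ends most like the members.

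The labels give no litter or batch, so p values measure the spread between these libraries. In both groups the chrM share tended to be higher at higher library numbers, and the labels do not say what the numbers stand for. Apart from the replicate block below, the share was not separated from the library number. No 2 libraries of a group agreed within sampling noise (mean chi-square per CpG of at least 10.4 over 210 pairs). The members and gene lists were chosen with earlier results of these data known. Exons were not used here.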

Additional observations from a re-analysis of the deposited data

How the results depend on the processing

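No member was called for treatment under any alternative run. Over all gene ends 0 were called, and 2 with 1 or more CpGs per end. With the chrM share in the model the differences changed sign at Sycp1 (-1.46), Sycp2 (-1.15) and Sycp3 (-1.16 points), with limma, blocked or not, at Sycp1 (-0.0543) and Sycp3 (-0.750), and without the 2 farthest libraries at Smc1b (0.0534). The same 2 left out gave 4.76 points at Sycp1, 3.96 at Sycp2 and 4.79 at Sycp3. At 20 reads the mean over the member starts differed by 0.158 points, with no value for Sycp3. The causes were not tested. CpGs called for treatment numbered 7, then 2 at 20 reads and 0 with limma (7453 at an unadjusted p under 0.05), blocked or not.

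The slopes of Sycp1, Sycp2, Sycp3 and Hormad1 stayed called in all 30 fits that left out 1 library, with a highest adjusted p of 0.00128. Calls with the share numbered 3558 gene ends, 3200 to 3587 over those fits, then 2210 at 20 reads, 1981 at 1 kb, 5473 with 1 or more CpGs and 590 within cadmium libraries. For single CpGs the 56558 calls became 34913 at 20 reads, 31824 with limma and 117408 in the wider set. Near-zero slopes changed sign: Syce1 at 5 reads (-0.0447), without the 2 farthest libraries (-0.00137), on the unlogged share (-0.0335 per 0.01% of coverage), within vehicle libraries (-0.00868) and over single libraries left out (-0.216 to 0.176), Syce2 within vehicle (0.320) and Smc1b within cadmium libraries (-0.0430).

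With a replicate block, limma called 464 gene ends and 38 CpGs with the share and 0 CpGs for treatment (8230 unadjusted). The blocked slopes were 13.9 at Hormad1 (adjusted p = 0.0621), 11.4 at Sycp1 (0.111), 13.1 at Sycp2 (0.166), 7.63 at Sycp3 (0.280), 0.426 at Syce2 and -0.122 at Syce1. Same-numbered libraries were over r = 0.1 in 7 of 15 pairs, so the numbers were not taken as pairs, and had a mean r of 0.15, against -0.0091 for other pairs, and 2 of 15 cadmium libraries correlated best with their own number. Depth limits Smc1b and Syce2, where a level of 0 allows up to 0.330% if reads at neighbouring CpGs were separate, and more since they are shared.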
